A study of Mus musculus with 6 samples.

Results

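Brain endothelial cells line the vessels of the brain, and 40 genes that mark them were followed here in RNA-seq of microglia, the resident macrophages of the brain. The 40 genes were chosen as the rows of the deposited count table whose symbol is on a list of endothelial markers. All 40 were found among 24411 symbols, and all 40 passed the filter on low counts, which left 13403 genes for testing. The libraries came from primary microglia of 8-week-old C57BL/6J mice, 3 from Mir137 knockout mice (gKO) and 3 from wild-type mice (gWT). The design text gives 4 adult mice without tying them to libraries, and the labels do not say that libraries came from separate animals. Every p here thus refers to the scatter among the 6 libraries, part or all of which may be technical. The label gKO names no promoter, Cre driver or cell type to which the loss of Mir137 is limited, and sex is not given.

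Endothelial cells of the brain are sealed by tight junctions and carry transporters that move nutrients across the blood-brain barrier. Their identity is held by ETS factors such as ERG and by the SOXF factors SOX7, SOX17 and SOX18, while VEGF, angiopoietin and Notch signals set vessel growth and the choice of artery or vein. Microglia sit close to these vessels in the same tissue.

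The labelled cell type was checked first. All 18 microglial markers were detected, and their summed level was 56017 to 65998 CPM (counts scaled to the same library total) in the gKO libraries, against 55122 to 59903 CPM in the gWT libraries. The sum of the 40 endothelial markers was 1815, 1783 and 1383 CPM in the gKO libraries, against 2989, 2308 and 2419 CPM in the gWT libraries. As nominal shares these sums were 0.138% to 0.181% in gKO and 0.231% to 0.299% in gWT. After this scaling the CPM do not add up to the same total in every library. Over all tested genes they summed to 1001016 to 1054167 in gKO and 961214 to 988401 in gWT. In such bulk samples, fewer cells of a type and less RNA per cell cannot be told apart, nor can endothelial transcripts be told apart from those of the same gene in microglia.

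Several facts of the libraries bear on what follows. The deposited counts summed to between 14603884 and 17652976 in gKO and between 16328561 and 17306422 in gWT. Replicate 3 of gKO stood apart on the first principal component, at 91.5 against -37.7 to -3.45 for the other 5 libraries, and its levels ran lower for longer transcripts, so results are given with and without it. The row of Mir137 itself had 0 counts in all 6 libraries and so checks no label. Xist, expressed from the inactive X chromosome, was counted 0, 0 and 8 times in the gKO libraries, against 2519, 2000 and 1830 times in the gWT libraries. Y-linked Ddx3y was counted 1477 to 1522 times in gKO and 1220 to 1313 times in gWT. Xist was thus split by genotype across all 6 libraries, while Ddx3y was counted in every one. The sex makeup of the libraries and their genotype cannot be told apart in this design. Of these differences between the groups, the part in the endothelial result was not tested.

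The microRNA removed in gKO mice is shown because its seed, the stretch that pairs with target transcripts, sets which members carry a match. Its mature form lies at chr3:118433901-118433923 on the plus strand (RefSeq, GRCm38.p6), with seed bases 2 to 8 in capitals.
mmu-miR-137-3p: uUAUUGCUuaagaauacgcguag
The 7-base complement of this seed, AGCAATA, was found in the annotated 3′ UTR of 4 of the 40 members, or 10%, against 1302 of 12580 tested genes with an annotated 3′ UTR, or 10.3%. The 4 members were Flt1, Tie1, Ptprb and Erg, and Ptprb held a pair of matches. The matches are shown 5′ to 3′ in the sense of the transcript with the AGCAATA in capitals (GENCODE M21, GRCm38).
Flt1: tgggggaagccAGCAATAatgaccaaaat
Tie1: ttggcgactggAGCAATAcagtagaagag
Ptprb, bases 727 to 733 of the 3′ UTR: gtgccatagcgAGCAATActaacagggat
Ptprb, bases 3209 to 3215 of the 3′ UTR: aacagatgtccAGCAATAcaaaaataggg
Erg: gattgagtgaaAGCAATAgaacaggaaca
All 4 genes with a match had negative log2 fold changes of gKO over gWT, at -1.02 for Flt1, -1.12 for Tie1, -1.17 for Ptprb and -0.62 for Erg, and none passed the test. A match of letters is a description of the sequence and not a site shown to be used, and the share of members with a match was close to that of all genes.

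Most endothelial markers were lower in gKO. The median log2 fold change was -1.02 for the receptors, -0.70 for adhesion molecules and sialomucins, -0.69 for transporters and -1.18 for transcription factors, and differences between these roles were not tested. The log2 fold change of gKO over gWT was negative for 36 of 40 members. Its median was -0.70 over the members and 0.01 over all 13403 tested genes. The 3 gKO and 3 gWT libraries did not overlap for 29 of 40 members, against 21.3% of all tested genes. In all 29 the gKO libraries were the lower ones, which held for 11.3% of tested genes. An unadjusted edgeR p under 0.05 with a lower level in gKO was found for 29 of 40 members, against 5.74% of tested genes.

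Few single genes passed the test across all genes. With an adjusted p under 0.05 in edgeR's quasi-likelihood test, 2 of 40 members fell in gKO, Sox17 and Sox18, against 0.231% of all tested genes, and 0 of 40 rose, against 0.395% of tested genes. No member had a higher level in gKO at an unadjusted p under 0.05 either. Without gKO replicate 3, 24 members passed the threshold as lower, against 3.82% of tested genes, and 1 as higher, Notch4, against 3.99%. The median log2 fold change of the members was then -0.66. Leaving out any single other library left 0 members passing in edgeR, while 16 to 28 members stayed lower at an unadjusted p under 0.05. The authors' deposited table of lower genes holds 9 of the members, Sox17, Sox18, Vwf, Rasip1, Podxl, Nos3, Ptprb, Tie1 and Dll4. In that table their log2 fold changes ran from -1.47 to -1.09. The list holds no gene with a small log2 fold change, so members that changed less may be absent for that reason. It covers 0.823% of all 24411 symbols in the count table, tested or not. That share is thus not comparable with the shares of tested genes above. The authors' deposited table of higher genes, with 75 entries, holds 0 members.

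**Figure D1:**
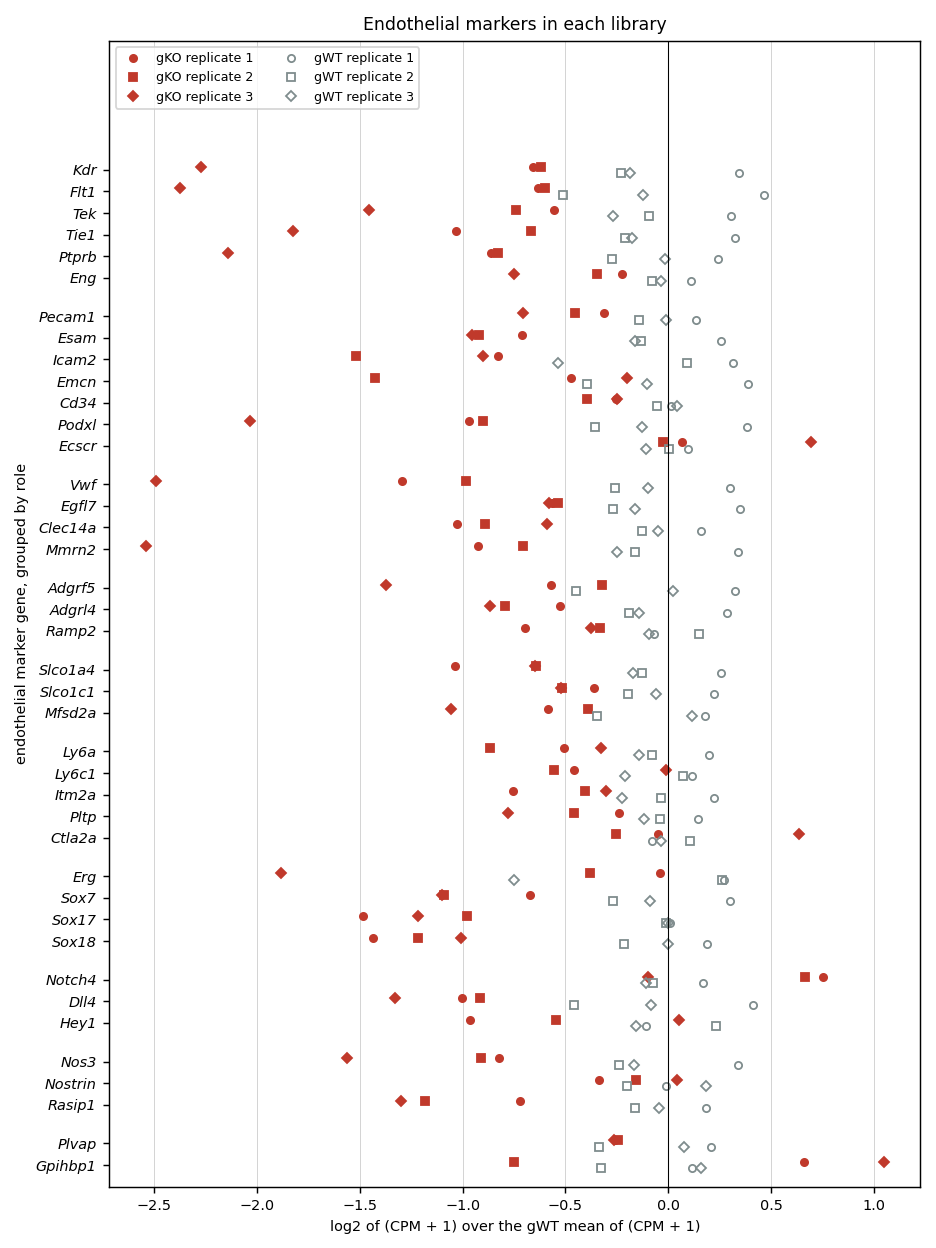
Each point is the log2 of (CPM + 1) of a member gene in 1 library over the gWT mean of (CPM + 1), with gKO filled in red, gWT open in grey, and genes grouped by role down the page. The gKO points lie left of 0 for most genes, with a median of -0.61, -0.63 and -0.82 in gKO replicates 1 to 3, and gKO replicate 3 reaches -2.54 for Mmrn2.

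The transcription factors held both called genes. Sox17, a SOXF factor of arterial endothelium (chromosome 1, 4490931 to 4497354, minus strand), had 10.2, 15 and 12.5 CPM in gKO, against 30.7, 30.2 and 30.5 CPM in gWT. The highest gKO library was far below the lowest gWT library, and gKO replicate 3 lay between the other gKO replicates. Sox17 fell by 1.28 on the log2 scale (SE 0.20, edgeR adjusted p 0.036). Sox18, the SOXF factor of vessel and lymphatic development (chromosome 2, 181669836 to 181671640, minus strand), had 14.4, 16.9 and 19.7 CPM in gKO, against 46.5, 35 and 40.6 CPM in gWT. Its groups did not overlap either, and it fell by 1.26 (SE 0.19, edgeR adjusted p 0.036). Over all alternatives run, the adjusted p spanned 1.4e-05 to 0.297 for Sox17 and 1.55e-05 to 0.299 for Sox18, and the high end came from fits with a library left out. Both genes kept a lower level in gKO in every one of them.

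The remaining SOXF factor, Sox7, had 5.1, 3.57 and 3.53 CPM in gKO, against 11, 7.09 and 8.14 CPM in gWT. The groups were separate, but at these low levels the log2 fold change of -1.10 (SE 0.32) did not pass (edgeR adjusted p 0.235). Erg, the ETS factor that keeps endothelial identity, had 15, 11.7 and 3.46 CPM in gKO, against 18.9, 18.7 and 8.79 CPM in gWT. Its groups overlapped, replicate 3 was the low library in both genotypes, and its log2 fold change was -0.62 (SE 0.51, edgeR adjusted p 0.737). The log2 fold change of Erg was -0.22 without gKO replicate 3.

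**Figure D2:**
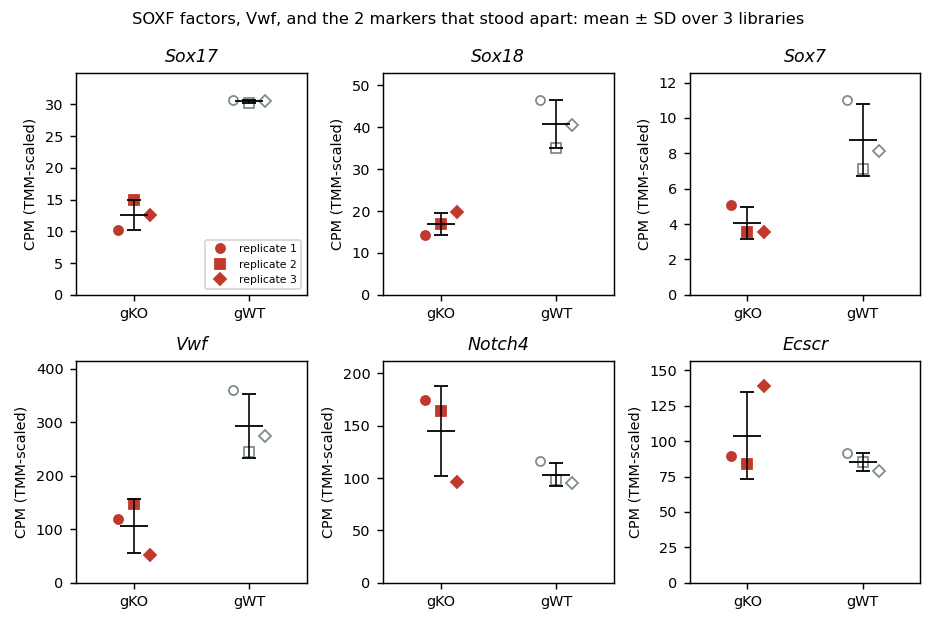
CPM of the SOXF genes Sox17, Sox18 and Sox7, of Vwf, and of Notch4 and Ecscr, 2 members with a higher mean in gKO; points are libraries and bars the mean ± SD over 3 libraries per genotype. The gKO libraries lie below all gWT libraries for Sox17, Sox18, Sox7 and Vwf, while the groups overlap for Notch4 and Ecscr.

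The receptors of VEGF, angiopoietin and TGF-beta were lower in every gKO library than in any gWT library, for all 6 genes. Of all tested genes 11.3% were separate in that direction. With all libraries 0 of 6 passed the test, against 0.231% of tested genes lower. Summed over the 6 genes, the level averaged 417 ± 126 CPM over the gKO libraries and 717 ± 115 CPM over the gWT libraries (SD, n = 3 each). Kdr, the main signalling receptor for VEGF-A, had 54.2, 55.6 and 17 CPM in gKO, against 109, 73.3 and 75.6 CPM in gWT. Flt1, which binds VEGF-A with little signalling of its own, had 38.6, 39.4 and 10.8 CPM in gKO, against 83.8, 41.9 and 55.2 CPM in gWT. For both VEGF receptors gKO replicate 3 was far below the other gKO replicates, which lay close together. The log2 fold change was -1.02 for each (SE 0.40 for Kdr and 0.46 for Flt1), and it moved to -0.66 for Kdr and -0.64 for Flt1 without that library. Of the 6 receptor genes, 5 then passed the threshold as lower, against 3.82% of tested genes, Flt1 being the exception (edgeR adjusted p 0.183).

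Tie1, an orphan receptor that pairs with TIE2, had 34.4, 44.6 and 19.4 CPM in gKO, against 89.6, 61.5 and 63.2 CPM in gWT. Ptprb, the phosphatase VE-PTP that restrains TIE2 signalling, had 90.1, 92.2 and 36.6 CPM in gKO, against 195, 136 and 163 CPM in gWT. On the log2 scale Tie1 differed by -1.12 (SE 0.30), Ptprb by -1.17 (SE 0.33) and Tek, the gene of TIE2 itself, by -0.89 (SE 0.27). Eng, the TGF-beta co-receptor endoglin and the member with the highest level per kilobase of transcript in gWT, had 245, 225 and 170 CPM in gKO, against 310, 271 and 280 CPM in gWT. Its log2 fold change was smaller, at -0.43 (SE 0.16, edgeR adjusted p 0.384).

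Among 7 adhesion molecules and sialomucins, 5 had separate groups with gKO lower, against 11.3% of tested genes. With all libraries 0 of 7 passed the test. Esam, a junctional adhesion molecule of endothelium and platelets, had 25.4, 21.9 and 21.3 CPM in gKO, against 50.6, 38.5 and 37.6 CPM in gWT. Its gKO libraries lay close together, replicate 3 included, and its log2 fold change was -0.89 (SE 0.18, edgeR adjusted p 0.104). Podxl, which keeps vessel lumens open, had 47.4, 49.6 and 22.1 CPM in gKO, against 122, 72.8 and 85.6 CPM in gWT. Icam2, a ligand for leukocyte integrins, had a log2 fold change of -1.15 (SE 0.33), and Pecam1, the platelet and endothelial adhesion molecule CD31, had -0.49 (SE 0.15). Cd34 differed least among the 5, with 166, 150 and 166 CPM in gKO against 200, 190 and 204 CPM in gWT, groups that were separate all the same. Emcn, the sialomucin endomucin of veins and capillaries, had overlapping groups and a log2 fold change of -0.70 (SE 0.43).

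Ecscr, an endothelial surface protein linked to cell migration, did not follow the rest. It had 89.3, 83.6 and 139 CPM in gKO, against 91.3, 85.3 and 79.1 CPM in gWT. Only gKO replicate 3 was high, and the log2 fold change of 0.28 (SE 0.20, edgeR adjusted p 0.686) was 0.01 without it. Ecscr lies wholly within the antisense gene 1700066B19Rik, which was counted 0, 0 and 0 times in the gKO libraries and 0, 6 and 0 times in the gWT libraries. The strand setting of the counting is not given in the sources used here, so reads of the pair cannot be told apart. The same holds where Nos3 overlaps Gm15587 (17423 bases), Cd34 overlaps Gm16897 (5521 bases), Plvap overlaps Gtpbp3 (1819 bases) and Sox17 overlaps Gm37587 (804 bases), each on the opposite strand, and for Rasip1, which a pair of antisense genes overlaps.

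All 4 matrix-linked and secreted proteins had separate groups with gKO lower, against 11.3% of tested genes. Their sum averaged 163 ± 57.4 CPM over the gKO libraries and 397 ± 81.6 CPM over the gWT libraries (SD, n = 3 each). Vwf, the von Willebrand factor that binds platelets to damaged vessels, had 119, 148 and 51.3 CPM in gKO, against 361, 245 and 274 CPM in gWT. It had the most negative log2 fold change of the 40 members, -1.47 (SE 0.35), but with the spread within gKO it did not pass (edgeR adjusted p 0.161). Without gKO replicate 3 the value was -1.15 (SE 0.18, edgeR adjusted p 0.0115). Clec14a, a C-type lectin of vessel walls, had 12.2, 13.5 and 16.9 CPM in gKO, against 29, 23.7 and 25 CPM in gWT. Mmrn2, its matrix ligand, had 20.9, 24.5 and 6.15 CPM in gKO, against 51.6, 36.1 and 33.9 CPM in gWT. Replicate 3 of gKO was thus the highest gKO library for Clec14a and the lowest for Mmrn2. Egfl7, a secreted protein whose gene hosts miR-126, had gKO libraries within 24.8 to 25.6 CPM and gWT libraries within 31 to 48.1 CPM.

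The 3 genes of barrier transport had log2 fold changes of -0.79 to -0.47, and 0 of 3 passed with all libraries. Slco1a4, an organic anion transporter of the blood-brain barrier, had 18.5, 24.7 and 24.6 CPM in gKO, against 46.9, 35.7 and 34.6 CPM in gWT, a log2 fold change of -0.79 (SE 0.20, edgeR adjusted p 0.178). Slco1c1, which carries thyroxine, had a log2 fold change of -0.47 (SE 0.16). Mfsd2a, the lipid transporter that holds down transcytosis, had -0.69 (SE 0.26). The groups were separate for all 3 transporters with gKO lower, against 11.3% of tested genes. Without gKO replicate 3 only Slco1a4 passed (edgeR adjusted p 0.0103), against 3.82% of tested genes lower.

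Adgrl4, an adhesion GPCR of growing vessels, had 33.8, 27.8 and 26.4 CPM in gKO, against 60, 42.9 and 44.3 CPM in gWT, with a log2 fold change of -0.74 (SE 0.19, edgeR adjusted p 0.184). Ramp2, the partner protein that turns the calcitonin-receptor-like receptor into an adrenomedullin receptor, had -0.48 (SE 0.18) and separate groups. Adgrf5, a further adhesion GPCR, overlapped between genotypes at 24.7 to 52.3 CPM in gKO and 47.8 to 82.3 CPM in gWT.

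Nos3, the endothelial nitric oxide synthase, had 19.8, 18.6 and 11.5 CPM in gKO, against 45.4, 30.1 and 31.7 CPM in gWT. Rasip1, a RAP1 effector needed for vessel lumens, had 19.6, 14 and 12.8 CPM in gKO, against 37.6, 29.4 and 31.9 CPM in gWT. Rasip1 came nearest to the threshold of all members not called, at a log2 fold change of -1.09 (SE 0.22, edgeR adjusted p 0.0985). The value for Nos3 was -1.11 (SE 0.26, edgeR adjusted p 0.161). Nostrin, which traffics the synthase, had overlapping groups at 5.21 to 7.07 CPM in gKO and 5.83 to 7.91 CPM in gWT.

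The Notch genes were split. Dll4, the ligand of tip cells and arteries, had 6.99, 7.48 and 5.37 CPM in gKO, against 20.3, 10.6 and 14.1 CPM in gWT. Its groups were separate, with a log2 fold change of -1.18 (SE 0.30, edgeR adjusted p 0.182). Notch4, the endothelial Notch receptor, had 175, 164 and 96.3 CPM in gKO, against 116, 98 and 95.7 CPM in gWT. Replicates 1 and 2 of gKO were above all gWT libraries, and gKO replicate 3 was at the gWT level. The log2 fold change of Notch4 was 0.49 (SE 0.22, edgeR adjusted p 0.481). With that library left out it was 0.70 (SE 0.09, edgeR adjusted p 0.000384). By CPM per kilobase Notch4 stood at place 8 of the 40 members in gKO and at place 17 in gWT. Hey1, a target of Notch signalling, had overlapping groups and a log2 fold change of -0.48 (SE 0.34).

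The LY6 antigens Ly6a and Ly6c1, which coat mouse endothelium, differed by -0.58 (SE 0.22) for Ly6a and -0.33 (SE 0.20) for Ly6c1 on the log2 scale, and of the pair only Ly6a had separate groups. Counts of Ly6c1 were not whole in 1 library, so reads may be shared with its near-identical relative Ly6c2. Itm2a, a membrane protein of brain endothelium encoded on the X chromosome, and Pltp, which transfers phospholipids between lipoproteins, each had -0.48 on the log2 scale and separate groups with gKO lower. Counts of Pltp were not whole in any of the 6 libraries, and the gene overlaps Ctsa on the opposite strand over 1515 bases. Ctla2a, an inhibitor of cysteine proteases, had 5.38, 4.53 and 9.26 CPM in gKO, against 5.24, 6.11 and 5.45 CPM in gWT. Only gKO replicate 3 was above the gWT range. Reads may be shared with the close relative Ctla2b, although counts of Ctla2a were whole in all 6 libraries.

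The 2 genes typical of vessels outside the barrier did not separate the genotypes. Plvap, the diaphragm protein of fenestrated capillaries, had gKO libraries within 18.7 to 19 CPM and gWT libraries within 17.8 to 26.4 CPM. Gpihbp1, which holds lipoprotein lipase on capillaries of fat and muscle, was counted 29, 0 and 35 times in the gKO libraries, against 14, 6 and 15 times in the gWT libraries. It was the lowest member per kilobase, and its log2 fold change of 1.01 came with an SE of 1.27.

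**Figure D3:**
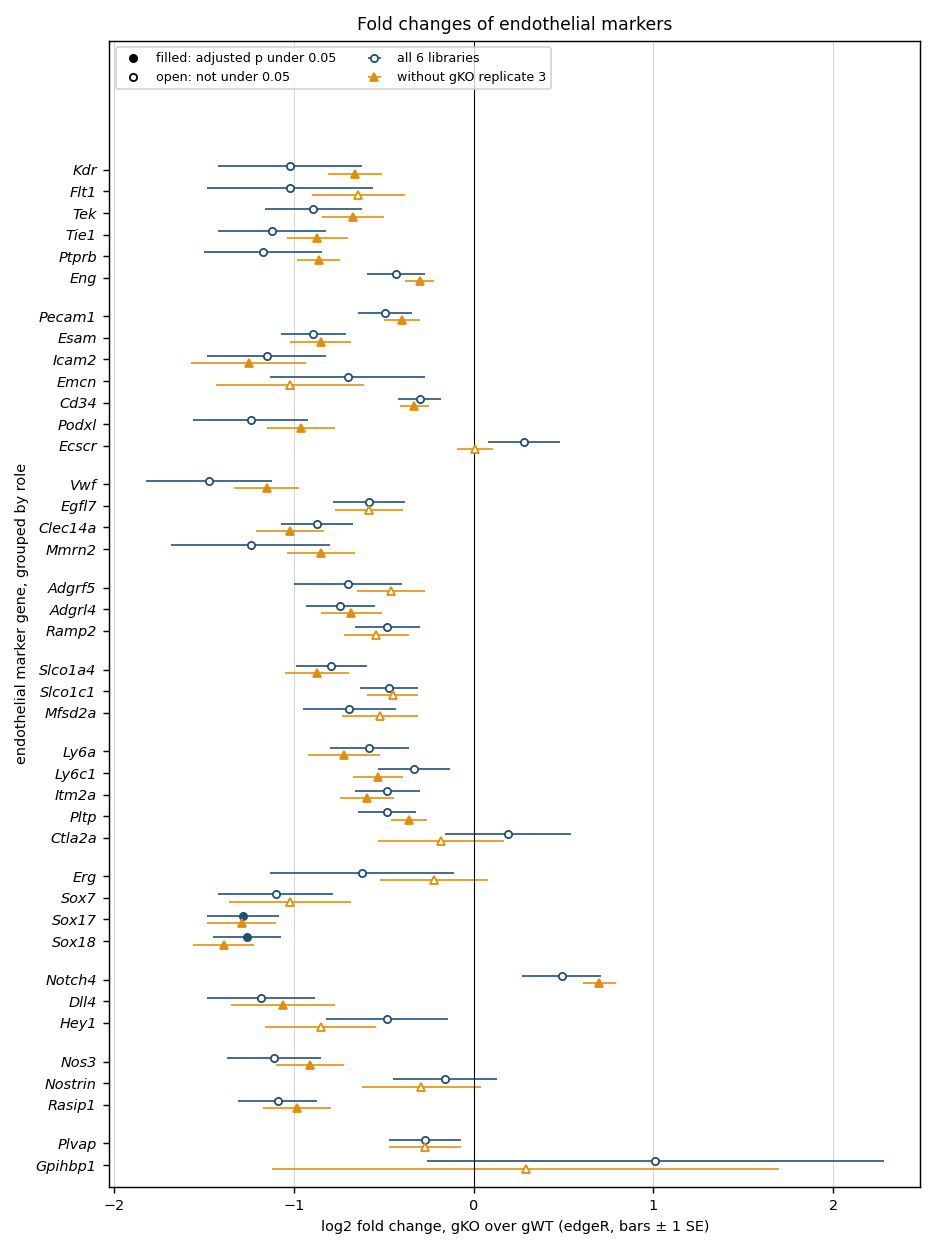
Log2 fold changes of gKO over gWT from edgeR with bars of 1 SE, with all 6 libraries (blue circles) and without gKO replicate 3 (orange triangles); filled symbols have an adjusted p under 0.05. Sox17 and Sox18 are filled in both fits, 24 members are filled below 0 without gKO replicate 3, and Notch4 is filled above 0.

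Levels between members are comparable only per kilobase of transcript. On that scale Eng, Cd34, Ecscr, Pltp, Itm2a and Pecam1 led in gWT, and the same 6 genes held the first 6 places in gKO. Eng had 68.7, 63.1 and 47.7 CPM per kilobase in gKO, against 86.7, 76 and 78.3 in gWT. Cd34 had 63.5, 57.5 and 63.6 CPM per kilobase in gKO, against 76.5, 72.8 and 78 in gWT, so Eng and Cd34 overlapped within each genotype. Vwf stood at place 14 in gKO and 7 in gWT, and Sox18 at place 15 in gKO and 9 in gWT.

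The departure of gKO replicate 3 from the other gKO replicates went with transcript length. Across the 40 members, Spearman's rho between exon length and the log2 ratio of gKO replicate 3 over the mean of gKO replicates 1 and 2 was -0.74, and across 13325 tested genes with a length it was -0.56. These are descriptions of the same 3 libraries, and genes are not independent replicates. The 20 shorter members, of 1004 to 3279 bases, had a median log2 ratio of 0.25, and the 20 longer ones, of 3299 to 12853 bases, had -0.81. The longer members also had the more negative median log2 fold change of gKO over gWT, -1.02 against -0.48 for the shorter ones. Without gKO replicate 3 these medians were -0.86 for the longer and -0.53 for the shorter members. With each library's length trend removed they were -1.0 for the longer and -0.53 for the shorter members.

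**Figure D4:**
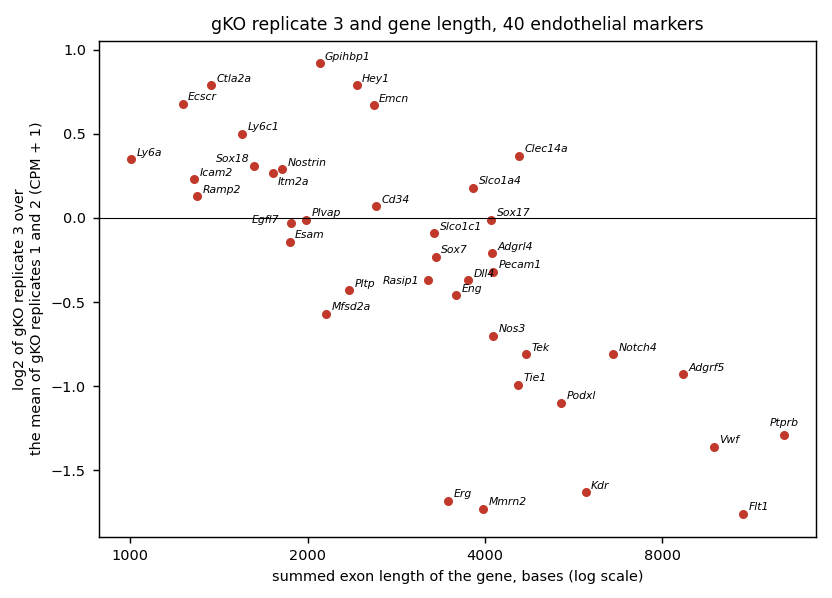
Log2 ratio of gKO replicate 3 over the mean of gKO replicates 1 and 2 against exon length in bases on a log axis, 1 point per member. The points run downwards with length, with a Spearman's rho of -0.74 over 40 genes.

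Most members followed each other across the libraries. Pearson's r between a member and the sum of the other members over the 6 libraries lay between -0.69 for Ecscr and 1.0 for Nos3, and only Ecscr, Ctla2a, Gpihbp1 and Notch4 were below 0. The genes outside the list closest to the summed level by Pearson's r over the 6 libraries were Aox1, Prkd2, Epas1, Frmd6, Rhot2, Adgra3, Fhl1, Ptprg, Cyyr1 and Ildr2, all with r of 0.99 or more. Epas1, the hypoxia-responsive factor HIF-2 alpha, had 135, 113 and 82.1 CPM in gKO, against 263, 175 and 195 CPM in gWT. These values of r share the libraries, their depth and the difference between the genotypes, and none of the 10 genes passed the edgeR test.

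Promoter windows of the members were searched for letters of the ETS and SOX sites. For 23 members 30 RefSeq windows were found, each from 250 bases before to 50 after a start. The remaining members had no window, among them the called genes Sox17 and Sox18, as well as Sox7 and Vwf. The letters AGGAAG, 1 form of the ETS site, were searched on both strands (as CTTCCT on the other). They were in 19 of 30 windows, or 63.3%, against 35.4% of 32851 promoter windows of all genes. The members were chosen as endothelial markers, so this share describes that choice and not the difference between gKO and gWT. Other forms of the ETS site around the core GGAA were not searched and are neither counted nor marked. The SOX letters AACAAT, also on both strands (ATTGTT), were in 5 of 30 windows, or 16.7%, against 10.7%. The motifs do not overlap in letters, and several windows come from 1 gene. The windows of Rasip1 and Tie1, with negative log2 fold changes, and of Notch4, with a positive one, are shown 5′ to 3′ along the gene's strand. Only AGGAAG and CTTCCT are in capitals (GRCm38.p6).
Rasip1, chr7:45627287-45627586, plus strand: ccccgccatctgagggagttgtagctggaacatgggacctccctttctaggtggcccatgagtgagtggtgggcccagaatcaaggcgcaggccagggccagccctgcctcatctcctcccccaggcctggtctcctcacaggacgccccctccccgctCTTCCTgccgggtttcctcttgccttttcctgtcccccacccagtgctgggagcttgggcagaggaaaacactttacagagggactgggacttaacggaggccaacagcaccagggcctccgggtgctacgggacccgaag
Tie1, chr4:118489800-118490099, minus strand: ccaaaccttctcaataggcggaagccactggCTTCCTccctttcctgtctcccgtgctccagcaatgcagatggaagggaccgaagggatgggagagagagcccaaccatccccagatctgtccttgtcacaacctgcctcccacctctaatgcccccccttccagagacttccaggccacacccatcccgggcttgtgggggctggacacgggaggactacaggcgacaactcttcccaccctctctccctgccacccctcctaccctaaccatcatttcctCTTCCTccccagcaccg
Notch4, chr17:34564045-34564344, plus strand: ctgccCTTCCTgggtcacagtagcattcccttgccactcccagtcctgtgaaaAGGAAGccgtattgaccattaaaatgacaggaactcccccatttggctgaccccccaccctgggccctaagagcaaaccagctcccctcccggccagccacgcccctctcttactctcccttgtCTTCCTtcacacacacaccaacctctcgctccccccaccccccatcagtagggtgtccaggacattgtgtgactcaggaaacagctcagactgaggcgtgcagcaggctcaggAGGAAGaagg
Rasip1 held 1 match to these letters, Tie1 held 2 and Notch4 held 4, so matches were present in genes of either sign.

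Of the ligands, co-receptors and factors that work with the members, 1 fell and 1 rose. Of 60 pathway partners in the table, 53 were tested, and their median log2 fold change was -0.36. Jag1, a Notch ligand of vessel walls, fell in gKO, with 8.3, 9.94 and 11.5 CPM in gKO against 27.6, 26.1 and 21.6 CPM in gWT (log2 fold change -1.34, SE 0.22, edgeR adjusted p 0.0398). Klf4, a flow-induced factor of endothelium that is also made by myeloid cells, rose, with 120, 106 and 104 CPM in gKO against 55.4, 62.7 and 65.9 CPM in gWT (log2 fold change 0.84, SE 0.14, edgeR adjusted p 0.0398). These were the called partners, 1 of 53 in each direction, against 0.231% of tested genes lower and 0.395% higher. Bmp6 and Cavin1 came next, with log2 fold changes of -2.21 (edgeR adjusted p 0.052) and -1.39 (edgeR adjusted p 0.0534). Without gKO replicate 3, 13 of 53 partners passed as lower, against 3.82% of tested genes, and 5 as higher, against 3.99%.

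By group, the 9 tested genes of the barrier Wnt pathway all had negative log2 fold changes, and their median was -0.71. By edgeR 0 of them were called and 3 were lower at an unadjusted p under 0.05, against 5.74% of tested genes. That sign rested in part on gKO replicate 3: without it 6 of the 9 were negative and the median was -0.50. Without that library 2 passed as lower, against 3.82% of tested genes, Lef1 and Apcdd1, named after their values were seen. The ratio of summed levels of gKO over gWT was then 0.97, against 0.79 with all libraries. The 12 ETS and other endothelial factors had a median of 0.12, with Klf4 called. The 8 tested VEGF ligands and co-receptors had a median of -0.43, and the 9 Notch ligands and targets had -0.32, with Jag1 called.

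Other brain endothelial genes, outside the 40, were mostly lower in gKO too. There were 72 such rows, of which 70 were tested, 61 had a negative log2 fold change, and the median was -0.67. In edgeR 3 of 70 fell, against 0.231% of tested genes, and 0 rose, with 1 higher at an unadjusted p under 0.05. Cldn5, the main claudin of the blood-brain barrier, had 116, 125 and 141 CPM in gKO, against 290, 253 and 235 CPM in gWT (log2 fold change -1.03, SE 0.14, edgeR adjusted p 0.0246). Fbln5, an elastic-fibre protein, fell by 1.29 on the log2 scale (SE 0.16, edgeR adjusted p 0.0221). Thbd, the anticoagulant receptor thrombomodulin, fell by 1.22 (SE 0.20, edgeR adjusted p 0.041). Cdh5, the adherens junction protein VE-cadherin, had 42, 38.3 and 21.3 CPM in gKO, against 78.8, 75.3 and 69.5 CPM in gWT, and did not pass (log2 fold change -1.14, SE 0.24, edgeR adjusted p 0.117). Lcn2, an inflammatory gene that neutrophils also make, was nearest to passing in the other direction, with a log2 fold change of 1.32 (edgeR adjusted p 0.0534). Without gKO replicate 3, 25 of these 70 genes passed as lower, against 3.82% of tested genes, and 1 as higher, against 3.99%.

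Marker sums of other cells of the vessel wall and meninges were also lower in gKO. The 18 mural cell markers, all detected, summed to 140 to 207 CPM in gKO against 326 to 454 CPM in gWT. Acta2, actin of vascular smooth muscle, fell, with 21.7, 24.3 and 17.4 CPM in gKO against 64.8, 49.7 and 48.3 CPM in gWT (log2 fold change -1.36, SE 0.20, edgeR adjusted p 0.0312). Pdgfrb, the receptor that marks pericytes, had -0.79 (edgeR adjusted p 0.384). The 13 fibroblast markers, all detected, summed to 396 to 466 CPM in gKO against 620 to 827 CPM in gWT. By edgeR's adjusted p 5 of them fell, against 0.231% of tested genes, the collagen genes Col1a1, Col1a2, Col3a1, Col6a1 and Col6a2. These 5 are named after their values were seen. The 12 astrocyte markers, all detected, summed to 281 to 316 CPM in gKO against 384 to 430 CPM in gWT. Of these, 0 were called by edgeR and 5 were lower at an unadjusted p under 0.05, against 5.74% of tested genes. Lower vessel, mural and fibroblast levels thus went together in these libraries, at ratios of summed levels of 0.55 for mural and 0.59 for fibroblast markers without gKO replicate 3, and their part in the endothelial result was not tested.

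Blood cell markers differed from list to list. The 10 neutrophil markers, all detected, summed to 566 to 1059 CPM in gKO against 283 to 350 CPM in gWT. By edgeR's adjusted p 2 of them rose, against 0.395% of tested genes, Ltf and Mmp9, likewise named after their values were seen. The 8 platelet markers summed to 69 to 186 CPM in gKO against 76.7 to 108 CPM in gWT, with Gp6 at 0 in all libraries. The 7 erythroid markers summed to 39.8, 38.9 and 134 CPM in gKO, against 88.2, 77.8 and 100 CPM in gWT, with Hba-a1 at 0 in all libraries. By this sum, replicates 1 and 2 of gKO were below every gWT library and gKO replicate 3 above them all. The globin gene Hbb-bs, named after its values were seen, gave 60 CPM of the sum in gKO replicate 3. It had 0 CPM in gKO replicates 1 and 2, and 6.63, 0 and 24.7 CPM in gWT. Hba-a2 had 67.7 CPM in gKO replicate 3, within the 67.3 to 71.9 CPM of gWT. The ratio of summed levels of gKO over gWT was 0.80 with all libraries and 0.44 without gKO replicate 3. Of 4 tested erythroid genes 0 passed with all libraries in edgeR. At an unadjusted edgeR p under 0.05, 1 was lower, against 5.74% of tested genes. Without gKO replicate 3, 2 passed as lower, against 3.82% of tested genes, the globin genes Hba-a2 (log2 fold change -0.94, edgeR adjusted p 0.000177) and Hbb-bt (-2.35, edgeR adjusted p 0.00523). Both are named after their values were seen, and near-identical globin genes can share reads. The part of blood cell levels in the endothelial result was not tested. Platelets also carry Pecam1, Esam and Vwf, and the platelet sum overlapped between genotypes, at a ratio of gKO over gWT of 1.27, or 0.88 without gKO replicate 3. The neutrophil ratio was 2.26, or 1.76 without that library. The 9 lymphocyte markers summed to 36.8 to 59.5 CPM in gKO against 37.5 to 46.3 CPM in gWT, with Cd3g at 0 in all 6 libraries and Cd3e at 0 in gKO. The 11 border macrophage markers summed to 2497 to 3710 CPM in gKO against 3353 to 3463 CPM in gWT.

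**Figure D5:**
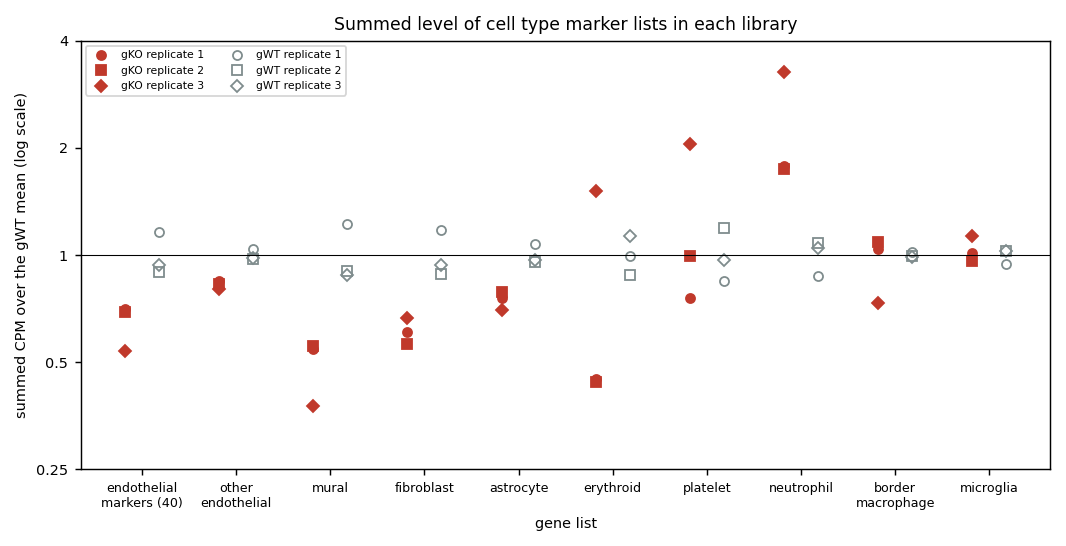
Summed CPM of each marker list in each library over the gWT mean of that list, on a log axis, with gKO filled in red left of gWT open in grey. The gKO libraries lie below all gWT libraries for endothelial, mural, fibroblast and astrocyte lists, at ratios of mean sums of 0.65, 0.49, 0.61 and 0.75, and above them for neutrophil markers, at 2.26.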

How the data were processed

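RNA-seq libraries of Mir137 gKO and gWT microglia, 3 per genotype, were analysed from the authors' deposited table of expected counts per gene symbol. Per the submitters' processing notes, the tools were STAR 2.7.9a, RSEM and DESeq2, and GRCm38 and mm10 appear as builds, without their roles. The labels and headers name neither an annotation nor a strand setting. The authors' deposited gene lists give, per the file headers, the average normalized signal of each gene, its log2 fold change, the error and Wald statistic of that change (both scores), and its p-value before and after adjustment.

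After rounding, the expected counts went into edgeR 4.0.16 (R 4.3.3), with a two-sided quasi-likelihood test on genotype after TMM scaling and edgeR's default filter on low counts. The Benjamini-Hochberg method adjusted p over 13403 genes. A gene was called where its adjusted p was under 0.05. CPM values are scaled by TMM. Per-library plots add a pseudocount of 1. Exon lengths came from GENCODE M21 (GRCm38), to which 23365 symbols matched by name and 669 by synonym, while 377 had no match. The alternatives were DESeq2 1.42.0, limma 3.58.1 with voom, scaling by RLE or upper quartile, other filters, a replicate block, removal of length trends, and leaving out each library. The low depth of a gene limits its precision, and totals per library were 14603884 to 17652976 counts.

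Replicate numbers were not treated as pairs in the main fit: deviations of same-numbered libraries correlated at 0.0529, -0.0475 and 0.0153. These deviations are from group means that include the outlying gKO replicate 3, so they cannot show that libraries were not paired. No 2 libraries of a group agreed within sampling noise. The members and gene lists were chosen with earlier results of these data known, so counts over them are descriptions. Library values are given for the called members, the 10 members with the smallest p, and the 3 on each side farthest from the members' median. Those of further members, such as Kdr, Flt1 and Erg, were added after their values were seen. Of the other endothelial and of the partner list, the called genes and the 4 genes with the smallest p are named, and always Cldn5 and Cdh5.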

Additional observations from a re-analysis of the deposited data

How the results depend on the processing

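The median log2 fold change of the 40 members stayed between -0.85 and -0.56 under all alternatives, with 36 to 38 members negative, while counts of calls moved widely. Over all genes, the counts lower and higher in gKO were 223 and 168 with DESeq2, 173 and 285 with voom quality weights, 125 and 145 with length trends removed, and 0 to 528 and 0 to 551 with a library left out. Without a filter 47 genes were lower. Members called lower numbered 13 with DESeq2, 9 with voom quality weights, 8 with length trends removed and 0 to 24 with a library left out. Members called higher numbered 1 with voom quality weights and 0 to 1 with a library left out. Pathway partners called lower numbered 2 with upper-quartile scaling, 9 with DESeq2, 2 with voom, 9 with voom quality weights, 3 without a filter, 7 with length trends removed and 0 to 13 with a library left out. Partners called higher numbered 2 with DESeq2, 3 with voom quality weights, 2 with length trends removed and 0 to 5 with a library left out. Other brain endothelial genes called lower numbered 16 with DESeq2, 17 with voom quality weights, 16 with length trends removed and 0 to 25 with a library left out. Of these, 1 was called higher with DESeq2, with voom quality weights, without a filter and with length trends removed, and 0 to 1 with a library left out. With the replicate number as a block, edgeR called 7 genes lower and 11 higher, 0 members, 0 partners and 0 other endothelial genes lower and 0 partners higher, while 29 members were lower at an unadjusted p under 0.05. The high counts with a library left out all came without gKO replicate 3. The low ones came with fewer libraries in a group and any other library out. There edgeR had 729 to 1741 genes at an unadjusted p under 0.05, of 13741 to 13822 tested. The 729 came from 13741 tested genes, without gWT replicate 1, and such counts are not calls. Ctla2a turned to -0.12 with voom quality weights and to -0.18 without gKO replicate 3 (-0.18 to 0.38 with any library left out), and Gpihbp1 to -0.25 with voom and -1.02 with voom quality weights, with none of these past the threshold. The causes of these changes were not tested. Depth limits low genes such as Gpihbp1, Sox7 and Emcn.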
